A study of Mus musculus with 6 samples.

Results

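SPARC, the SMOC proteins, the testicans (Spock genes), the nidogens and the thrombospondins are secreted calcium-binding proteins that sit between cells and the extracellular matrix. The 10 genes described here are Smoc1, Smoc2, Sparc, Sparcl1, Spock1, Spock2, Nid1, Nid2, Thbs1 and Thbs2, picked by symbol from the 20588 genes of the deposited table. All 10 were found, each once. Of them 9 had enough reads in enough libraries to be among the 14025 genes tested. Sparcl1 did not, since its reads came almost only from PKO 2 and PKO 3 (228 and 123). The list was drawn up with the knockout against wild-type values of these same libraries in view, in which Smoc2 had shown the smallest p of the 10. Their fold changes are therefore given as a description, with the standard error (SE) and without a p-value.

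Matricellular proteins modulate adhesion, growth factor signalling and matrix assembly more than they bear load. SPARC binds collagen and aids its processing, SMOC proteins bind heparan sulphate and antagonise bone morphogenetic protein (BMP) signalling, and thrombospondins engage CD36, CD47 and integrins, with thrombospondin 1 also activating latent TGF-beta. Nidogens join laminin to type IV collagen in the basement membrane, the sheet that encloses the muscle fibre and the satellite cell beneath it.

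The cells were muscle stem cells (satellite cells, the progenitors that repair skeletal muscle) sorted from the hind limbs of C57BL/6NJ mice aged 2 months. Both groups spent 7 days in growth medium and then 16 h with 2% horse serum, which starts differentiation. The knockout, written Pnpla2PKO in the labels and PKO here, targets Pnpla2, which encodes the lipase that opens triglyceride breakdown; 3 PKO libraries (PKO 1 to PKO 3) stood against 3 wild-type libraries (WT 1 to WT 3). Values of 3 libraries are given in the order of these numbers. The labels name no Cre driver and no deleted exons. They also do not say if replicates derive from different mice or cultures, so every error and p-value covers library-to-library spread, possibly technical.

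Total counts ran from 15580176 to 18839151 per library. Pnpla2 mRNA stood at 21.1, 38.5 and 33.7 CPM (counts scaled to library size with TMM factors) in the WT libraries against 8.47, 16.0 and 15.5 CPM in the PKO libraries, without overlap (exact two-sided permutation p = 0.1, the smallest that 3 against 3 libraries allows). The 8 myogenic markers that define these cells were detected in all 6 libraries. They summed to 10504 to 11208 CPM in WT against 10698, 7933 and 8828 CPM in the PKO libraries. Myog and Des were the largest parts of each sum. Of the 8, Myog, Cdh15 and Itga7 lay below all WT libraries in PKO, and 0 lay above. Myog was at 2510 to 2798 CPM in WT against 2239 to 2503 CPM in PKO. Itga7 had means of 1260 CPM (WT) and 753 CPM (PKO). Pax7 and Myf5 overlapped, with means of 88.6 and 50.8 CPM in WT against 47.0 and 26.1 CPM in PKO. Myod1 overlapped at means of 1559 CPM (WT) and 1487 CPM (PKO). Markers of stromal cells were detected too: the 12 listed markers summed to 154 to 268 CPM over the WT libraries and to 290, 610 and 757 CPM over the PKO libraries, and 5 of the 12 separated the groups with PKO on top. Gsn was the largest part of each sum, at 139 to 255 CPM in WT against 262, 326 and 348 CPM in the PKO libraries. Within that list Pdgfra ranged from 2.03 to 3.72 CPM in WT against 5.12, 102 and 95.3 CPM in the PKO libraries, Dcn from 0.851 to 2.35 CPM against 1.6, 68.4 and 41.2 CPM, and Dpt had no reads in any WT library or in PKO 1. Clec3b and Dpp4 stayed below 0.3 CPM in each library. Pericyte markers (6 of 6 listed) summed to 85.3 to 198 CPM in WT against 245 to 483 CPM in PKO, where 3 of them (Pdgfrb, Cspg4 and Mcam) lay above all WT libraries. Pdgfrb ranged from 3.86 to 11.9 CPM in WT against 12.3, 258 and 104 CPM in the PKO libraries. Rgs5 overlapped, and Kcnj8 had at most 2 reads in any library. Abcc9 overlapped with a lower mean in PKO (81.4 CPM for WT against 67.7 CPM) and gave 117 CPM of the sum in WT 1. Tendon markers did not sum higher in PKO (133 to 145 CPM in WT against 124 to 134 CPM). Nearly all of that sum was Scx (130 to 141 CPM in WT against 120 to 130 CPM in PKO), while Mkx overlapped at means of 2.84 CPM (WT) and 3.87 CPM (PKO). Of the adipocyte markers Lep alone was listed. Leukocyte markers were low, with sums of 5.70 to 6.20 CPM in WT against 11.4, 15.9 and 13 CPM in the PKO libraries. Of the 5 listed in the table, 3 (Lyz2, Cd68 and Csf1r) lay above all WT libraries. Csf1r did so by 8 reads in PKO 3 against 7 in WT 3. Most of the rise in the sum came from Lyz2, with means of 0.673 CPM (WT) and 7.04 CPM (PKO). Itgam had a lower mean in PKO (2.94 against 2.10 CPM) with overlap, and Ptprc overlapped, with no reads in WT 1 or PKO 1. Endothelial markers summed to 11.1 to 14.1 CPM in WT against 13.8 to 18.6 CPM in PKO, with 3 of 7 (Cdh5, Pecam1 and Emcn) above all WT libraries and Vwf below them. The part of these marker shifts in the values of the 10 genes was not tested. In bulk RNA, a larger number of cells of a type and more RNA per cell cannot be told apart.

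Together the 10 genes held 0.157% to 0.169% of all reads in WT against 0.213%, 0.472% and 0.302% in the PKO libraries. Smoc2, Nid1, Thbs2 and Sparc separated the groups completely, with PKO on top, which is 4 of the 9 tested genes, where 11.8% of all tested genes had that pattern. Sparcl1 was high in PKO 2 and PKO 3 only. Thbs1 stood out in PKO 2 alone, Nid2 and Smoc1 were highest in WT 1 and PKO 1, and the testican genes differed little. The 9 tested genes all had a log2 fold change above 0 (48.3% of all tested genes did), with a median of 0.63 against -0.02 over all genes.

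**Figure D1:**
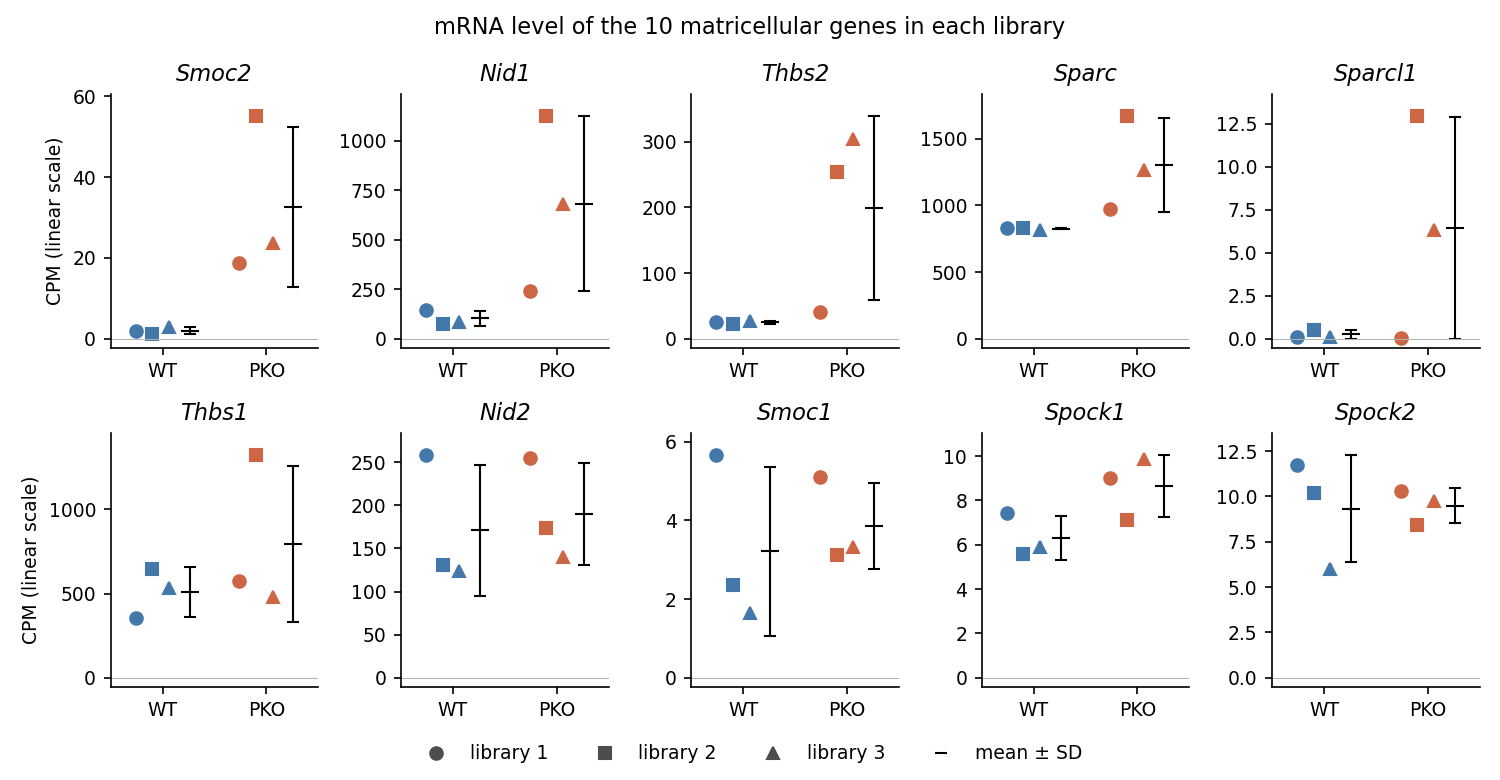
CPM of each of the 10 genes on a linear axis from 0, with symbols for the 3 WT (blue) and 3 PKO (orange) libraries and black bars for the mean ± SD (n = 3). Smoc2, Nid1, Thbs2 and Sparc separate the groups, Sparcl1 is high in PKO 2 and PKO 3 only, and WT 1 and PKO 1 lie highest for Nid2 and Smoc1.

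Smoc2 showed the widest separation of the tested genes of this set. SMOC2 is a basement membrane glycoprotein with thyroglobulin-like, follistatin-like and extracellular calcium-binding domains. Its gene (ENSMUSG00000023886) lies on chromosome 17, 14279506 to 14404790 on the plus strand of GRCm38. The WT libraries held 34, 17 and 53 of its reads, or 2.01, 1.11 and 2.90 CPM. The PKO libraries held 354, 970 and 461 reads, or 18.9, 55.2 and 23.7 CPM. Every PKO library thus lay far above every WT library, and the lowest of them, PKO 1, was at 9.40 times the WT mean. The group means were 2.01 ± 0.894 CPM for WT against 32.6 ± 19.7 CPM for PKO (SD, n = 3 each), a log2 fold change of 4.0 ± 0.54 (SE). In PKO 1, where Smoc2 was at 18.9 CPM, the stromal marker sum was 290 CPM against 268, 161 and 154 CPM in the WT libraries. Most of these sums was Gsn, at 262 CPM in PKO 1 against 255, 150 and 139 CPM in the WT libraries, so they say little of the other markers. Pdgfra, Cd34, Ly6a, Mfap5 and Gsn lay above all WT libraries there (Cd34 at 14.4 CPM against 3.08 to 7.09 CPM), Dcn lay within its WT range, and the pericyte marker Rgs5 was at 106 CPM against at most 41.9 CPM in WT. The part of these cell types in the Smoc2 values was not tested.

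Smoc1, its paralog and likewise a BMP antagonist, was scarce and did not follow it. Its values (gene ENSMUSG00000021136, chromosome 12, 81026808 to 81186414) were 5.67, 2.36 and 1.64 CPM in the WT libraries against 5.12, 3.13 and 3.34 CPM in the PKO libraries. The groups overlapped, with WT 1 highest and PKO 1 next. The log2 fold change was 0.26 ± 0.49, and it was 0.95 without WT 1 and -0.06 without WT 3. As a ratio of deposited FPKM (reads scaled by gene length and by library size), Smoc2 over Smoc1 was 0.437, 0.583 and 2.18 in the WT libraries against 4.55, 21.8 and 8.76 in the PKO libraries. Smoc2 was thus the lesser of the pair in WT 1 and WT 2 and the greater in WT 3 and in each PKO library.

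Sparc was by far the most abundant of the 10 per length. SPARC (osteonectin) is the founding member of the family and binds fibrillar collagen and albumin. Its gene (ENSMUSG00000018593, chromosome 11, 55394500 to 55420080, minus strand) had a mean FPKM of 352 ± 2.83 for WT against 578 ± 159 for PKO, ranking 157 and 84 among the 20588 listed genes. The WT libraries stood at 829, 831 and 818 CPM and the PKO libraries at 971, 1671 and 1266 CPM. The WT libraries were nearly equal, and PKO 1 was only 1.18 times the WT mean. The log2 fold change was 0.66 ± 0.21, the smallest among the 4 genes without overlap.

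Sparcl1 encodes hevin, a SPARC relative of vascular and brain matrix. The gene (ENSMUSG00000029309, chromosome 5, 104079111 to 104114088) had 2, 8 and 2 reads in the WT libraries. The PKO libraries held 1, 228 and 123 reads, or 0.0533, 13 and 6.31 CPM. PKO 1 thus lay with the WT libraries at the edge of detection, and PKO 2 and PKO 3 stood alone. With the WT mean at 0.250 ± 0.237 CPM, PKO 2 was at 51.8 times and PKO 3 at 25.2 times that mean. Pdgfra and Dcn were at 102 and 68.4 CPM in PKO 2 and at 95.3 and 41.2 CPM in PKO 3, the same 2 libraries, and their part in the Sparcl1 values was not tested.

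The follistatin-like relative Fstl1, which shares the SPARC-type calcium-binding region, is not one of the 10 and had means of 35.9 ± 13.6 CPM (WT) and 287 ± 187 CPM (PKO). Its log2 fold change was 3.0 ± 0.59, with an adjusted p of 0.179 in edgeR's quasi-likelihood test and 9.56e-07 in DESeq2. Of the other relatives listed, Thbs3 was at 2.74 ± 1.42 and 6.28 ± 1.37 CPM (edgeR adjusted p = 0.233), and Spock3, Thbs4 and Comp had too few reads to be tested. Like the 10 genes, the lists of related genes used here and below were drawn up with earlier results of these data known. Genes named from them are mostly those of smallest p. Their counts and p-values are therefore given as a description, and no enrichment is read from them.

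The testicans, proteoglycans best known from the brain, varied least. Spock1 (ENSMUSG00000056222, chromosome 13, 57421195 to 57908314) stood at 7.44, 5.57 and 5.91 CPM in the WT libraries against 9.01, 7.11 and 9.85 CPM in the PKO libraries. PKO 2 lay below WT 1, so the groups overlapped, with a log2 fold change of 0.46 ± 0.23. Spock2 (ENSMUSG00000058297, chromosome 10, 60106219 to 60135198) stood at 11.8, 10.2 and 6.02 CPM against 10.3, 8.42 and 9.75 CPM. Its PKO values lay inside the WT range, the log2 fold change was 0.03 ± 0.28, and it became -0.22 without WT 3 and -0.03 without PKO 1.

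The nidogens went separate ways. Nid1, the main laminin-binding linker of basement membranes (ENSMUSG00000005397, chromosome 13, 13437602 to 13512275, plus strand), stood at 147, 76.2 and 83.2 CPM in the WT libraries. In the PKO libraries it reached 240, 1125 and 680 CPM. WT 1 was the highest of the WT libraries and PKO 1 the lowest of the PKO libraries, but the groups did not overlap. The log2 fold change was 2.74 ± 0.56, from 102 ± 39.1 to 681 ± 443 CPM. Nid2 (ENSMUSG00000021806, chromosome 14, 19751257 to 19811787) stood at 259, 131 and 123 CPM in the WT libraries against 255, 174 and 140 CPM in the PKO libraries. Its 2 highest libraries were WT 1 and PKO 1, the log2 fold change was 0.15 ± 0.34, and the direction changed without WT 2, WT 3 or PKO 1 (-0.01, -0.04 and -0.12). The 3′ end of Nid2 overlaps 2700060E02Rik on the opposite strand, and reads of the overlap cannot be told apart since the strand setting of the counting is not given in the sources used here. In FPKM, Nid1 over Nid2 was 0.460, 0.470 and 0.544 in the WT libraries against 0.759, 5.22 and 3.92 in the PKO libraries. The balance in WT and PKO 1 thus favoured Nid2, and in PKO 2 and PKO 3 it favoured Nid1.

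**Figure D2:**
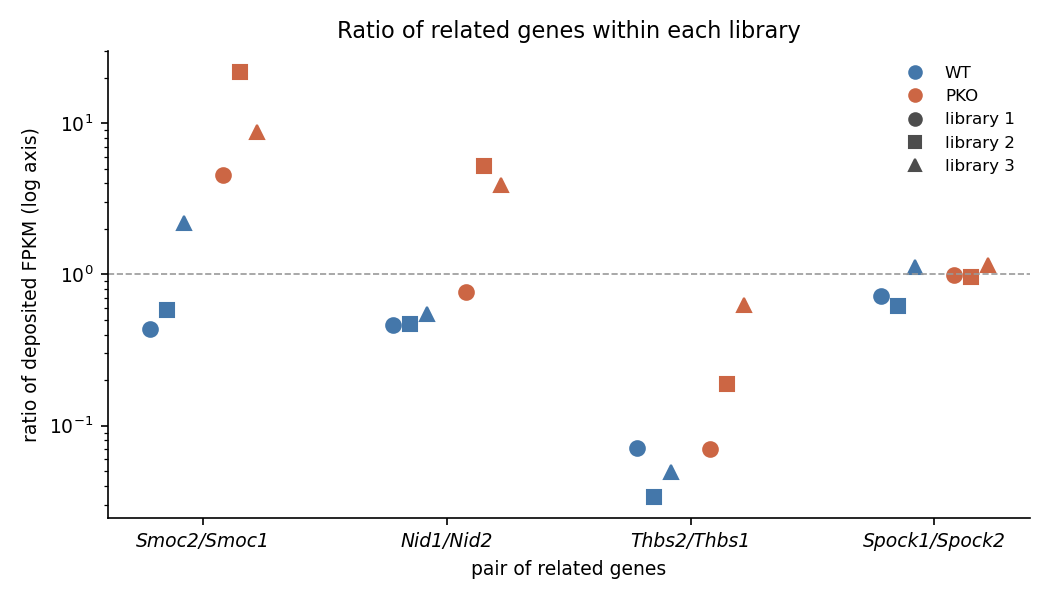
Ratio of deposited FPKM between related genes within each library, on a log axis (WT blue, PKO orange; the dashed line marks equal levels). Smoc2/Smoc1 and Nid1/Nid2 separate the groups with PKO on top, while Thbs2/Thbs1 in PKO 1 (0.0700) lies among the WT values and Spock1/Spock2 overlaps.

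Of the 16 listed partners of the nidogens in the basement membrane, 15 were tested, 11 with a log2 fold change above 0 and a median of 0.28. The calls were 0 with edgeR and 4 higher with DESeq2 (4.73% of all genes). At an unadjusted edgeR p under 0.05, 6 were higher and 2 lower, beside 10.2% and 6.35% of all genes. Fbln2, a fibulin that binds nidogen, had means of 21.3 ± 9.30 CPM (WT) and 501 ± 413 CPM (PKO), with an adjusted p of 0.179 in edgeR and of 0.000162 in DESeq2. The type IV collagen genes Col4a5 and Col4a2 had log2 fold changes of 2.69 ± 0.63 and 1.86 ± 0.44. Lamc1, the laminin chain that carries the nidogen-binding site and was added after its values were seen, was at 0.57 ± 0.25 (edgeR adjusted p = 0.320), and Hspg2 (perlecan), added likewise, was at -0.04 ± 0.29.

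The thrombospondins also parted. Thbs2, a trimeric thrombospondin that inhibits angiogenesis and clears matrix metalloprotease 2 (ENSMUSG00000023885, chromosome 17, 14665500 to 14694262, minus strand), stood at 25.3, 22.2 and 26.8 CPM in the WT libraries. In the PKO libraries it reached 40.7, 254 and 304 CPM. PKO 1 was 1.64 times the WT mean, PKO 2 and PKO 3 were 10.2 and 12.3 times that mean, and the groups did not overlap. The log2 fold change was 3.01 ± 0.66, from 24.8 ± 2.33 to 200 ± 140 CPM. Thbs1, the trimeric form that activates latent TGF-beta (ENSMUSG00000040152, chromosome 2, 118111876 to 118127133), stood at 354, 646 and 534 CPM in the WT libraries against 575, 1324 and 480 CPM in the PKO libraries. PKO 2 stood alone at 2.59 times the WT mean, and PKO 1 and PKO 3 lay within the WT range. The log2 fold change of Thbs1 was 0.63 ± 0.42, and 0.05 without PKO 2. In FPKM, Thbs2 was at 0.0339 to 0.0707 of Thbs1 over the WT libraries and at 0.0700, 0.189 and 0.626 of it over the PKO libraries, so Thbs1 was the more abundant in each library.

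Receptors and uptake partners of these proteins showed mixed values. Of 17 genes 16 were tested, 11 with a log2 fold change above 0 and a median of 0.16. At an unadjusted edgeR p under 0.05, 5 were higher and 1 lower (10.2% and 6.35% of all genes), and 0 passed after adjustment. DESeq2 called 3 higher, beside 4.73% of all genes. These 3 were Lrp1, the endocytic receptor that takes up thrombospondins, at 446 ± 58.8 CPM for WT and 1186 ± 691 CPM for PKO (DESeq2 adjusted p = 0.00573), Itgb5 (DESeq2 adjusted p = 0.00553) and Itgb3 (DESeq2 adjusted p = 0.0402), integrin beta chains that pair with the alpha v chain. In edgeR their adjusted p was 0.190, 0.191 and 0.197. The classical thrombospondin receptors, added after their values were seen, were at 3.97 ± 1.56 and 4.55 ± 2.05 CPM (Cd36) and at 46.1 ± 5.83 and 71.8 ± 15.8 CPM (Cd47, edgeR adjusted p = 0.203).

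**Figure D3:**
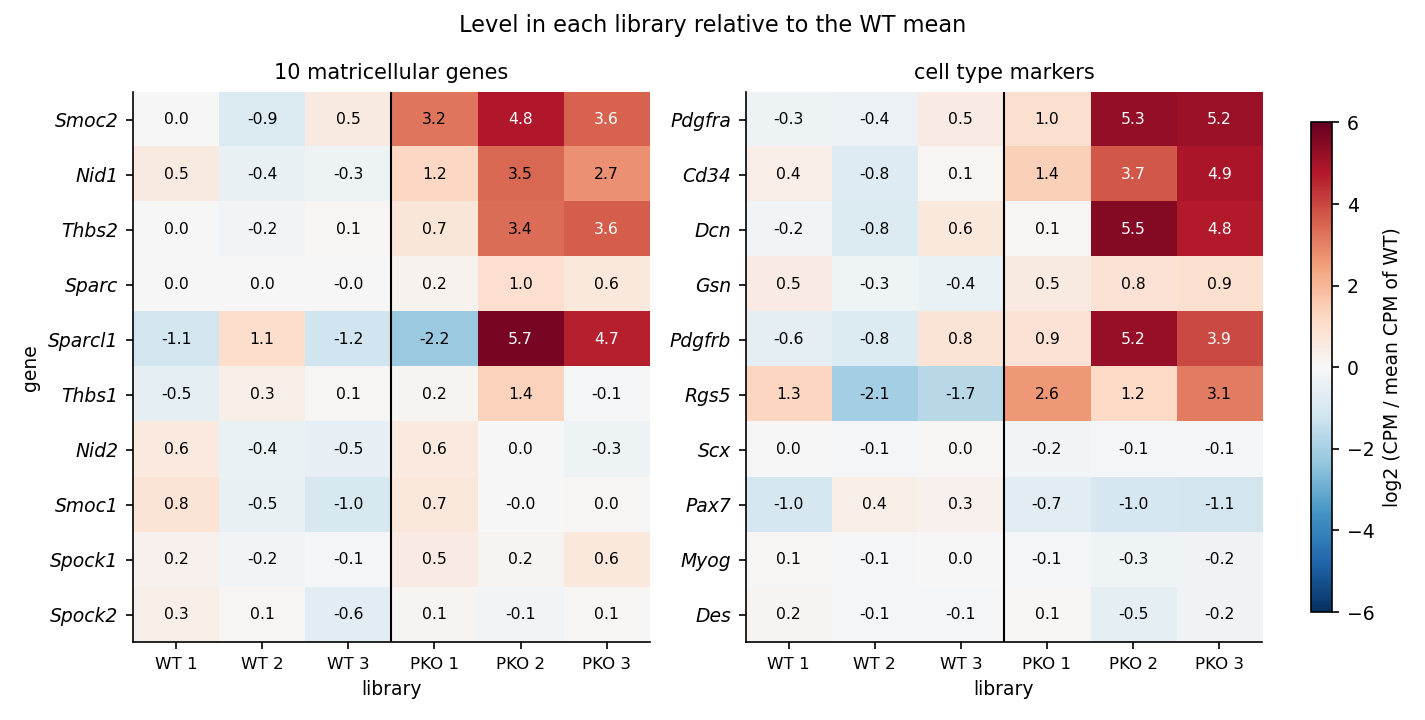
Log2 ratio of CPM in each library to the mean CPM of WT, for the 10 genes (left) and for 10 cell type markers (right), on a shared colour scale. Smoc2 stands at 3.2 in PKO 1, where Pdgfra is at 1.0 and Dcn at 0.1. Rgs5 and Cd34 also lie above all WT libraries in PKO 1 (106 and 14.4 CPM against at most 41.9 and 7.09 CPM in WT). Of the stromal markers not shown, Ly6a and Mfap5 did so too (3.46 and 1.33 CPM against at most 1.48 and 0.655 CPM in WT). Osr1, also not shown, lay within its WT range there. Sparcl1, Pdgfra, Dcn and Pdgfrb are highest in PKO 2 and PKO 3.

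Counts of calls among the 10 genes depended on the tool and on the libraries used. Since the contrast had chosen the genes, nothing is read from these counts. In edgeR 0 of the 9 tested genes passed an adjusted p of 0.05, where 0% of all genes did, and 4 were higher at an unadjusted p under 0.05, where 10.2% of all genes were (6.35% were lower). With DESeq2 3 of 10 were called higher, Smoc2, Nid1 and Thbs2, beside 4.73% of all genes. With limma-voom, another tool, 0 of 9 were called higher, beside 0% of all genes. Without PKO 1, edgeR called Smoc2, Nid1, Thbs2 and Sparcl1 (4.54% of all genes), without WT 1 it called Smoc2 (3.55%), and without both it called those 4 and Sparc (10.2%).

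Smoc2 and Thbs2 are neighbours in the genome. Their gene bodies are 260.7 kb apart on chromosome 17 and point towards each other, and the deposited table lists no gene between them. The next tested gene before Smoc2 is Dact2, a regulator of Wnt and TGF-beta family signalling, whose start lies at -75.7 kb from that of Smoc2. Dact2 had means of 0.683 ± 0.155 CPM for WT and 3.49 ± 2.79 CPM for PKO (log2 2.35 ± 0.72, edgeR adjusted p = 0.210, DESeq2 adjusted p = 0.0271). The next tested gene beyond Thbs2, 1600012H06Rik, was at 0.38 ± 0.19 (edgeR adjusted p = 0.363). What the shared location has to do with the values was not tested.

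Promoter sequences, from 250 bases before to 50 bases after the annotated start, were found in RefSeq (GRCm38.p6) for 5 of the 10 genes, Sparc, Spock1, Spock2, Nid1 and Thbs2. They are shown for the 3 of these that separated the groups, 5′ to 3′ on the strand of the gene, with matches to 6 short motifs on either strand in capitals. The lines hold chr13:13437352-13437651 (plus strand), chr17:14694213-14694512 (minus strand) and chr11:55420031-55420330 (minus strand).
Nid1: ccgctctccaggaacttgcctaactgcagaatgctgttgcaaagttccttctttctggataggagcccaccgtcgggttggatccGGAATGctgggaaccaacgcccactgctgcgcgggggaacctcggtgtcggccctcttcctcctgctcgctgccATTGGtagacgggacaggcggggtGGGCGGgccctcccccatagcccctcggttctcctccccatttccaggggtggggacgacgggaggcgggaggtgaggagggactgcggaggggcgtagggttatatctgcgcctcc
Thbs2: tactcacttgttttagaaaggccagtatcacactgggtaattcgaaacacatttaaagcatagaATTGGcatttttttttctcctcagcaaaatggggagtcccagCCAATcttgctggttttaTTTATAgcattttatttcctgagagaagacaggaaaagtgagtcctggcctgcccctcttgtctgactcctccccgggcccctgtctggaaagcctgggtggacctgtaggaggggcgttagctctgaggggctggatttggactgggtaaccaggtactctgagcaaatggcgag
Sparc: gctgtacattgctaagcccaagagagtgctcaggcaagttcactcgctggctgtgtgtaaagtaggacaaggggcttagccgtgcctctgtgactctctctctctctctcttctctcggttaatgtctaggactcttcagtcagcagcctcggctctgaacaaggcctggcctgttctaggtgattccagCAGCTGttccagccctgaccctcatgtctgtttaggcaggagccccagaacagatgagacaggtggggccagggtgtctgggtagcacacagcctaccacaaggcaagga
The letters TATAAA, the core of the TATA box, occur in 13.6% of 32851 mouse promoter windows of the same length. The GC box was searched as GGGCGG (35.7% of windows), the AP-1 site as TGANTCA (7.81%) and the TEAD site as CATTCC (14.7%). The CAAT box was searched as CCAAT (37.4%), and an E-box bound by the myogenic factors as CAGCTG (16.3%). No match overlapped another in these windows. The 3 windows held no motif in common. Nid1 had a GC box, a TEAD match and a CAAT box on the opposite strand, Thbs2 had 2 CAAT boxes and a TATA core on the opposite strand 126 bases before the start, outside the usual place of a TATA box, and Sparc had the E-box 60 bases before the start. Spock1 held a GC box and an AP-1 match, and Spock2 held none of the 6. GC content was 64.7% for Nid1, 48.3% for Thbs2 and 55.3% for Sparc, against a median of 52.7% over all windows. A match describes letters and does not show that a factor binds.

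Genes whose level followed Smoc2 most closely across the 6 libraries included another matrix gene. Among 11792 protein-coding genes with a mean of at least 1 CPM, the 5 with the highest Pearson r to Smoc2 (log2 CPM) were Mmp13 (0.99), Cept1 (0.99), Dnajb6 (0.99), Mcc (0.99) and Gpsm3 (0.98). Mmp13, a collagenase, stood at 0.650, 0.262 and 0.657 CPM for WT against 3.30, 13.9 and 6.77 CPM in the PKO libraries, so it too was highest in PKO 2. Among the nearest to Thbs1 were Mxra7 (0.99), AW549877 (0.98), Plekha2 (0.98) and Vps8 (0.98), these 4 peaking in PKO 2, Plekha2 at 35.6 CPM there against 15.4 to 21.3 CPM elsewhere. These coefficients rest on 6 libraries that differ in genotype and in marker content, and with so many candidates high values arise by selection; they describe likeness only.

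Among the 10 genes themselves, the levels fell into groups by library. Over the 6 libraries, Pearson's r of Nid1 was 0.96 with Sparc (Spearman's rho 0.83), 0.95 with Thbs2 (rho 0.89) and 0.93 with Smoc2 (rho 0.94). Smoc1 followed Nid2 (r = 0.93, rho 0.94) and, less closely, Spock2 (r = 0.82, rho 0.83). Within the paralog pairs r was lower, at 0.15 for Nid1 and Nid2 (rho 0.43) and 0.48 for Thbs1 and Thbs2 (rho 0.03). It was 0.24 for Smoc1 and Smoc2 (rho 0.09) and 0.41 for Spock1 and Spock2 (rho 0.31). All these coefficients span both genotypes. Genes that separate the groups in the same direction, as Nid1, Sparc, Thbs2 and Smoc2 do, correlate for that reason already. The nidogen, thrombospondin and SMOC pairs each join such a gene to a gene that overlapped, so a lower r there adds nothing to the levels given above. Both testican genes overlapped.

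Fibrillar collagens, the ligands of SPARC, had all 5 genes tested, and each of the 5 separated the groups with PKO on top. Over all tested genes 11.8% had that pattern. The list was drawn up with earlier results of these data known, so nothing is read from this difference. The median log2 fold change of the 5 was 1.58, and 0 were called with edgeR (5 higher at an unadjusted p under 0.05, beside 10.2% of all genes) and 4 higher with DESeq2 (4.73% of all genes). Col3a1 was at 311 ± 53.7 CPM for WT and 594 ± 119 CPM for PKO, where edgeR gave an adjusted p of 0.179 and DESeq2 one of 0.00204. Col1a2 and Col1a1 had log2 fold changes of 3.66 ± 0.84 and 5.08 ± 1.20. Collagens are also abundant products of stromal cells, whose markers moved with them as given above, and that part in the values was not tested.

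Other matricellular genes went with the higher set only in part. Of 16, 13 were tested, with a median of 1.5 and 9 above 0. DESeq2 called 6 higher (4.73% of all genes), of which Tnxb had enough reads in too few libraries for the edgeR test. With edgeR 0 were called, and 7 were higher at an unadjusted p under 0.05 (10.2% of all genes). Ctgf, a CCN protein, had means of 4.73 ± 1.40 CPM for WT and 63.8 ± 50.8 CPM for PKO, with an adjusted p of 0.179 in edgeR and 1.64e-09 in DESeq2. Spp1 (osteopontin) was at 1624 ± 331 and 4589 ± 1742 CPM, and Ecm1 at 44.2 ± 8.60 and 160 ± 74.8 CPM. The galectin genes and the CCN gene Cyr61, added after their values were seen, lay the other way, at -0.27 ± 0.22 (Lgals1), -0.49 ± 0.36 (Lgals3) and -0.55 ± 0.32 (Cyr61), none passing either tool.

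TGF-beta and BMP partners had a median of 0.30 over 15 tested genes, 10 of them above 0. DESeq2 called 6 of the 17 listed genes higher (4.73% of all genes), of which Bmp6 was not among the 15. With edgeR 0 were called, while 5 were higher and 1 lower at an unadjusted p under 0.05 (10.2% and 6.35% of all genes). Ltbp2 was at 4.72 ± 3.55 and 72.7 ± 65.1 CPM, and Tgfb1 at 20.6 ± 7.05 and 59.2 ± 23.2 CPM. The BMP target genes Id1, Id2 and Id3, added after their values were seen, were at 0.30 ± 0.36, -0.32 ± 0.29 and 0.17 ± 0.29.

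Proteases and inhibitors that act on these proteins had 10 of 12 tested genes above 0 and a median of 1.82, with 8 called higher by DESeq2 (4.73% of all genes) and 0 by edgeR. Unadjusted edgeR p-values under 0.05 were found for 8 higher and 1 lower, beside 10.2% and 6.35% of all genes. Mmp14, a membrane-bound metalloprotease, was at 53.2 ± 22.7 and 231 ± 108 CPM, and Mmp2, which it activates and which thrombospondin 2 helps to clear, at 16.9 ± 3.41 and 139 ± 96.7 CPM. Ctsk, a collagen-cleaving cathepsin, was at 0.681 ± 0.227 and 35.3 ± 33.9 CPM. In edgeR the adjusted p of each of these 3 was 0.179. Over all 7 lists 78 genes were tested, with a median of 0.61. DESeq2 called 32 higher and 0 lower (4.73% and 0.933% of all genes). Leaving out 1 library, edgeR called 33 higher without PKO 1 (4.54% of all genes), 9 higher (3.55%) and 4 lower (3.32%) without WT 1, and 0 without any of the other 4.

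**Figure D4:**
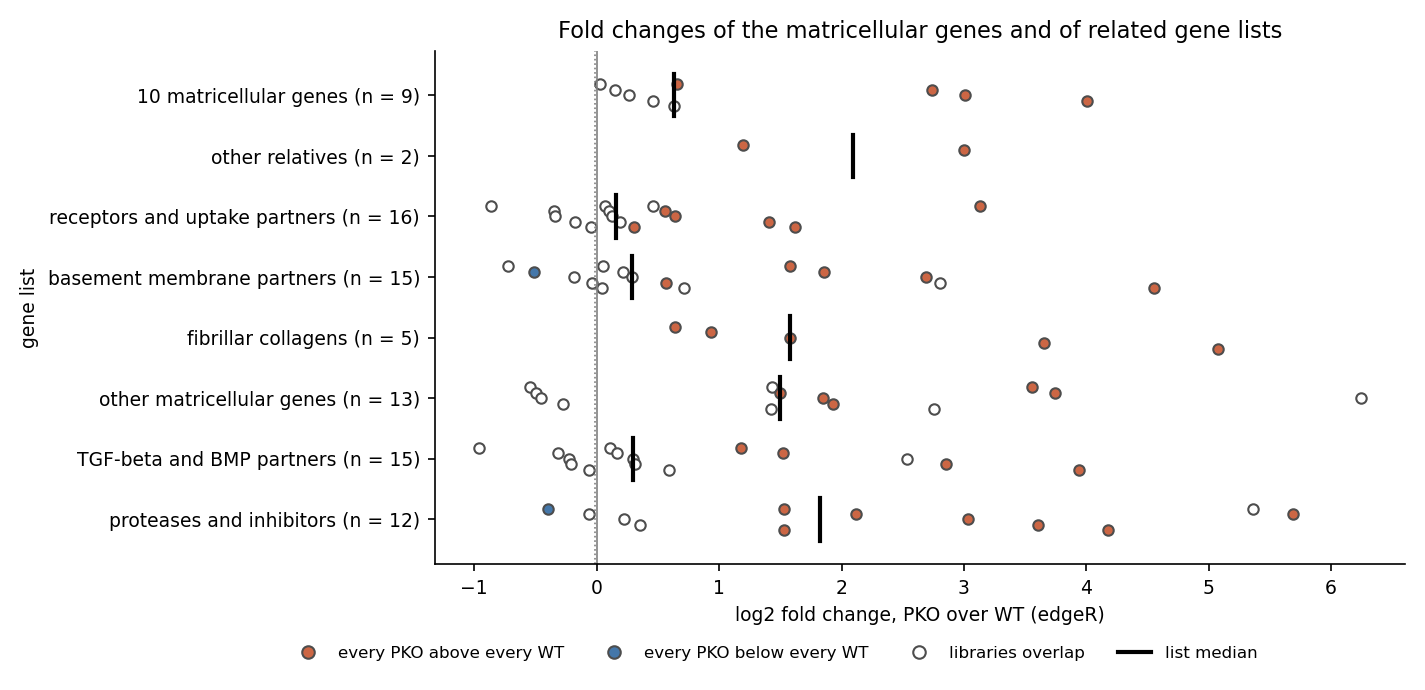
Log2 fold change (PKO over WT, edgeR) of each tested gene among the 10 and in 7 lists of related genes; filled points mark genes whose libraries do not overlap, black bars the list medians and the dotted line the median of all genes. The 9 tested genes of the set split into 3 above 2.7 and 6 below 0.7 (Sparcl1 has no point), and the fibrillar collagens are all filled.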

How the data were processed

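Polyadenylated RNA of 6 libraries, 3 WT and 3 PKO by their titles, is held in a single deposited table. Per the submitters' processing notes, paired reads of 150 bases were filtered and mapped to GRCm38 with TopHat2, and HTSeq 0.6.1 gave the gene counts; which annotation and strand setting were used is not stated there. The deposited values are read counts (whole numbers), on which all tests ran, and FPKM computed by the authors from those counts and a gene length, used only for levels between genes. The authors' normalized signal, log2 fold changes and p-values in the deposited table were not used; columns of other samples numbered 0.

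edgeR 4.0.16 (R 4.3.3) with filterByExpr, TMM factors and a robust quasi-likelihood fit on genotype was the main test, with Benjamini-Hochberg adjustment over 14025 genes at 0.05; SE came from the fold change and F statistic. CPM use TMM factors, and log2 CPM a prior count of 2. DESeq2 1.42.0 and limma-voom (limma 3.58.1), other scalings, filters and left-out libraries were alternatives. The code of the fit was checked on simulated data with an even spread between libraries, unlike these data, so nothing is read from that check for the results here. The 10 genes and the lists were chosen with earlier results of these data known. Named genes were the 10, Pnpla2, up to 3 genes of smallest p per list, the 5 likest genes, genome neighbours and cell markers; some genes under this rule are not reported here. Counting error was not compared with the spread between libraries, and it weighs most in genes of a few reads.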

Additional observations from a re-analysis of the deposited data

How the results depend on the processing

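Under the 15 alternatives the log2 fold change ran from 3.40 to 4.36 for Smoc2, 2.18 to 3.5 for Nid1, 2.56 to 3.51 for Thbs2 and 0.45 to 0.84 for Sparc. In these 4 genes every PKO library lay above every WT library. Leaving out libraries could therefore not be expected to reverse their direction, and nothing is read from its constancy. Direction was not fixed for Smoc1 (-0.06 without WT 3), Spock2 (-0.22 without WT 3, -0.03 without PKO 1) and Nid2 (-0.01 without WT 2, -0.04 without WT 3, -0.12 without PKO 1). Leaving out each library in turn, their ranges were -0.0629 to 0.946 for Smoc1, -0.217 to 0.222 for Spock2 and -0.116 to 0.572 for Nid2. The cause was not tested. Other scalings moved the median of all genes by under 0.1 on the log2 scale.

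Calls at an adjusted p of 0.05 were 0 in the main edgeR test. With limma-voom they were likewise 0 over all genes, the 10 genes and the related genes. DESeq2 called 766 genes higher and 151 lower, 3 of the 10 genes higher, and 32 related genes higher. Leaving out each library in turn gave 0 to 659 genes higher and 0 to 483 lower, 0 to 4 of the 10 genes higher, and 0 to 33 related genes higher and 0 to 4 lower. Without WT 1 and PKO 1 together, 1461 genes were higher and 805 lower, with 5 of the 10 genes higher, and 39 related genes higher and 6 lower. Pnpla2 passed with DESeq2 (log2 fold change -1.23, adjusted p = 0.00796), without WT 1 and PKO 1 (-1.20, adjusted p = 0.00734) and without WT 1 (-1.44, adjusted p = 0.0355); leaving out each library in turn gave -1.44 to -0.98.

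With the replicate number as a block, 1 gene was called higher and none of the 10. The main test used no such block, since the labels do not say what the number marks. Same-numbered libraries deviated together with r = 0.10, -0.03 and 0.13, and differently numbered ones with r from -0.21 to 0.12. These ranges lie too close to decide if the numbers pair the samples. Depth limits the WT values of Sparcl1, with 12 reads in the 3 WT libraries together.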
